A study of Mus musculus with 4 samples.

Results

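The genes examined were the 4 inhibitors of DNA binding, Id1, Id2, Id3 and Id4, and the 3 E proteins, Tcf3, Tcf4 and Tcf12, which are the inhibitors and partners of the myogenic factors Myod1 and Myog. They were taken by exact gene symbol from the authors' expression table, which held each of the 7 members as a single row among 24445 genes. The table compared cultured primary myoblasts of WT and Tet2 KO mice, both on the C57BL/6 strain. Per the study's methods, the KO was made by homologous recombination that deleted an exon of Tet2, so every cell of the animal carried it, and mice were young adult males unless stated otherwise. In both groups satellite cells of hindlimb skeletal muscle were sorted as living cells without CD45, CD11b, CD31 and Sca1 but with CD34 and Integrin a7. They were kept for at least 3 days on Type I collagen in T cell medium, with no differentiation step named for these libraries. Each group had 2 libraries of total RNA, and the labels did not say how many animals stood behind each library.

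Proteins of the basic helix-loop-helix family (bHLH) bind the E box, a short DNA word with CA at its start and TG at its end, as pairs. Myod1 and Myog, which commit cells to muscle and drive its differentiation, do so mainly in a pair with a broadly expressed E protein. Id proteins have the helix-loop-helix but lack the basic stretch that touches DNA, so an Id protein paired with an E protein cannot bind, and in growing myoblasts Id proteins are known to hold differentiation back. Id genes are classic targets of bone morphogenetic protein (BMP) signalling through Smad proteins.

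Levels were given as FPKM, the fragments counted for each kilobase of transcript length and for every 1000000 fragments mapped, which is a measure per length and so can be compared between genes. Each gene had 1 pooled value per group from the authors, so no value carries a standard deviation, no test across replicates could be made, and sequencing depth is unknown. The difference between groups was taken as log2((Tet2 KO FPKM + 1) / (WT FPKM + 1)), on which positive values mean more in Tet2 KO, and a gene was counted as past 2-fold when this difference reached 1 in either direction. Among the 11692 genes with a mean of at least 1 FPKM, 2.08% were past 2-fold higher and 1.21% past 2-fold lower in Tet2 KO. The median difference of these genes was -0.0044. The targeted gene, Tet2, had 5.79 FPKM in Tet2 KO against 6.64 FPKM in WT; this value covers the whole gene and does not isolate the deleted exon. All 8 myoblast markers examined were present, with Des highest at 372 FPKM in Tet2 KO against 449 FPKM in WT, and their median difference was -0.10. The 16 leukocyte markers summed, mostly through S100a8 and S100a9, to 2231 FPKM in Tet2 KO against 627 FPKM in WT. The sort, made before culture, had excluded CD45 and CD11b positive cells. Ptprc, which encodes CD45, had 5.67 FPKM in Tet2 KO against 1.36 FPKM in WT. Itgam, which encodes CD11b, had 10.05 FPKM in Tet2 KO against 2.09 FPKM in WT. The source of these transcripts was not tested. In a bulk sample, more cells of a type and more RNA per cell cannot be told apart.

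None of the 7 members was past 2-fold, against 2.08% of all genes higher and 1.21% lower, and none reached 1.5-fold. The largest difference was 0.19 for Id2, followed by 0.14 for Id1, while Myog, the partner of the E proteins in differentiation, had a difference of -1.04. Of the members 4 had more RNA in Tet2 KO and 3 had less. The order of levels was the same in both groups, from Id3, Id1 and Id2 through Tcf12, Tcf3 and Tcf4 down to Id4. With pooled values there is no spread against which neighbours in this order could be separated.

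**Figure D1:**
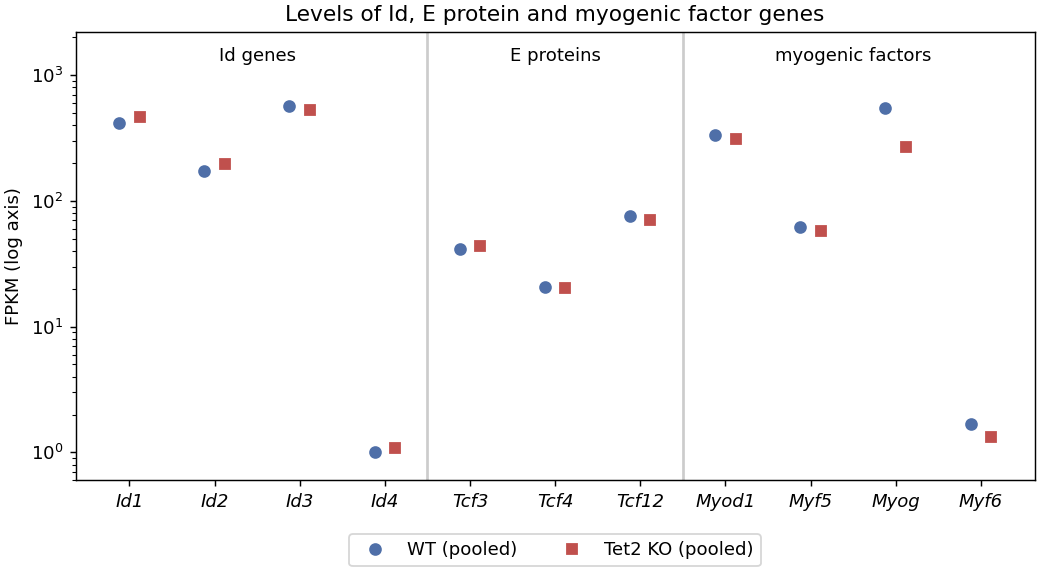
FPKM (log axis) of the 4 Id genes, the 3 E protein genes and the 4 myogenic bHLH genes, with 1 pooled value per group as a circle for WT and a square for Tet2 KO and no error bars. The 2 symbols lie close together for every Id and E protein gene, while Myog has 268 FPKM in Tet2 KO against 554 FPKM in WT.

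The Id genes were described first, as the inhibitors. Id3 was the most abundant, with 525 FPKM in Tet2 KO against 565 FPKM in WT and a difference of -0.10. Its mean placed it at position 169 of the 24445 genes. Id1 had 465 FPKM in Tet2 KO against 421 FPKM in WT, a difference of 0.14, and held position 203. These levels put both genes among the top 2% of the genes with a mean of at least 1 FPKM, at 1.45% and 1.74%. Id2 had 197 FPKM in Tet2 KO against 172 FPKM in WT, a ratio of 1.14. Id4 was near the lower limit of the genes examined, with 1.08 FPKM in Tet2 KO against 1.00 FPKM in WT, and supplied 0.0906% and 0.0865% of the summed Id level. Id1 and Id2 thus stood higher and Id3 lower in Tet2 KO, by amounts that cannot be set against a replicate error.

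How common such differences were among all genes was taken as a description. Of the 11692 genes, 26.8% had a difference at least as large in size as that of Id2, 36.5% as that of Id1 and 48.2% as that of Id3. Differences of abundant genes were smaller, as the median size of the difference was 0.0997 over all 11692 genes and 0.0685 over the 935 genes with a mean of at least 100 FPKM. Among those 935 genes, 16.3% differed by at least as much as Id2, 22.8% by at least as much as Id1 and 34.4% by at least as much as Id3. The sizes of the Id differences were therefore shared by many genes of high level, with Id2 farthest out.

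**Figure D2:**
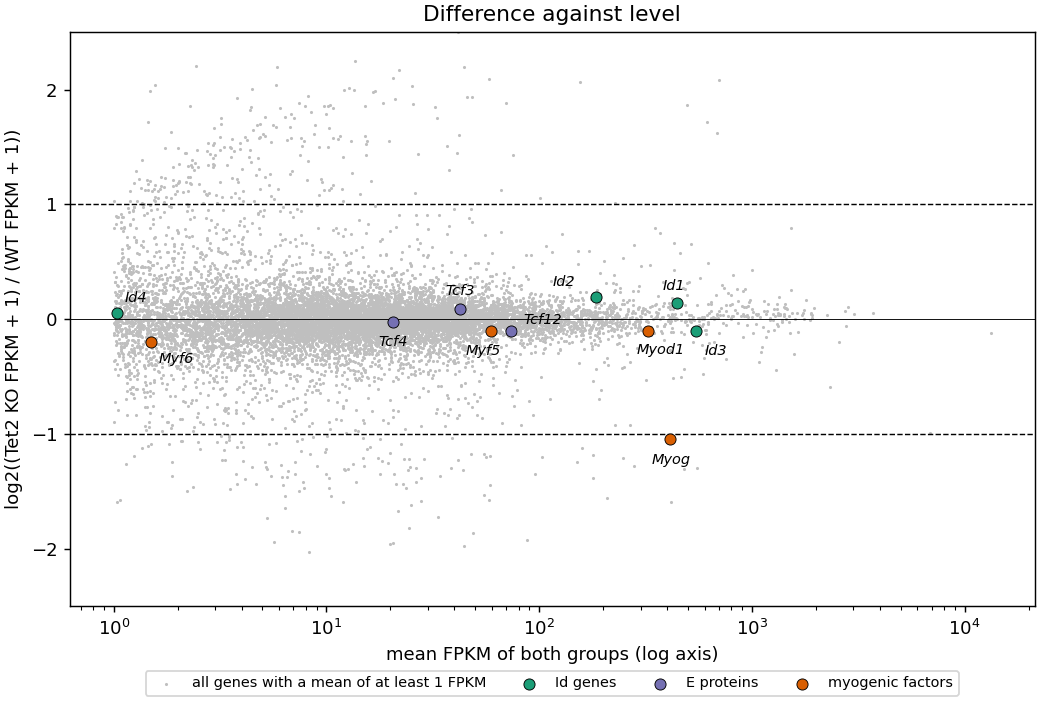
Difference, log2((Tet2 KO FPKM + 1) / (WT FPKM + 1)), against the mean FPKM of both groups (log axis) for the 11692 genes with a mean of at least 1 FPKM (grey) and the Id, E protein and myogenic bHLH genes (coloured). Dashed lines mark 2-fold, and 16 genes beyond 2.5 in either direction lie outside the plot. Only Myog of the coloured genes lies past a dashed line.

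Id1 spans 152561987 to 152563146 of chromosome 2 of mm9 (plus strand), and its longest transcript in GENCODE vM1, an annotation of the same build, has 1160 bases. Id2 spans 25778664 to 25780957 of chromosome 12 (minus strand), and Id3 spans 135699737 to 135701307 of chromosome 4 (plus strand). The deposited span of Id4, on chromosome 13 from 48139600 to 48359405, was far longer than the annotated gene, which runs from 48356796 to 48359405 on the plus strand. The table gave the same span to A330033J07Rik, a long noncoding RNA annotated on the minus strand from 48139600 to 48357992, whose end overlaps the start of Id4. The library kit does not mark strand, so reads of the overlap cannot be told apart. A330033J07Rik had 0.0409 FPKM in Tet2 KO against 0.0134 FPKM in WT. The low Id4 value is uncertain for this reason.

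The 250 bases before the transcription start of Id2 and Id3 are shown beside those of Myog. These genes were chosen with their values known. Id2 had the largest difference of the 7 members, 0.19, Id3 had -0.10 and Myog was past 2-fold lower. A link between sequence and difference was not tested. The windows are RefSeq sequences of build GRCm38.p6, a later build than that of the expression table. They are printed along the gene's strand with every E box in capitals. Id2 is at chr12:25096093-25096342 on the minus strand, Id3 at chr4:136143572-136143821 on the plus strand and Myog at chr1:134289754-134290003 on the plus strand.
Id2: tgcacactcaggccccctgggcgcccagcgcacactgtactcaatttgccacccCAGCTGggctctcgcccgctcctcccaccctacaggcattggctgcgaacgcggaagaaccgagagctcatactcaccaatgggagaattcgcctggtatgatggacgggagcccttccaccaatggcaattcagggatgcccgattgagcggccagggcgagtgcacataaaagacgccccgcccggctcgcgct
Id3: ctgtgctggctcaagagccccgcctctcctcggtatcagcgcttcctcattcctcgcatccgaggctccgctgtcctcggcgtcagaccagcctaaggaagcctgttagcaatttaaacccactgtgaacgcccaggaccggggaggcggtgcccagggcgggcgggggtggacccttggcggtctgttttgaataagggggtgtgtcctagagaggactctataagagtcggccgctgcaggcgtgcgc
Myog: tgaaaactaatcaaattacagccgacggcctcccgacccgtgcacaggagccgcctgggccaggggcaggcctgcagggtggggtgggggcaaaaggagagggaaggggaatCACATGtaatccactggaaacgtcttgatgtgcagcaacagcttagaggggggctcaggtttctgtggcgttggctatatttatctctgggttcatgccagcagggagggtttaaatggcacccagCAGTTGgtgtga

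E boxes were searched as CANNTG on both strands, a word that is its own reverse complement in form and that overlaps the more specific words below. At least 1 was found in 66.2% of the 32851 RefSeq promoter windows of this length, a set without chromosome 18. Myog held 2, CACATG with its first base 138 bases before the start and CAGTTG with its first base 12 bases before it. Id2 held 1, CAGCTG at 196 bases before the start, a word in 4271 of the 32851 windows. Id3 held none, and neither did Id4. The palindrome GGCGCC, a word that Smad proteins bind in BMP-induced genes, occurred once each before Id2 and Id4 and in 9.59% of all windows. CpG, the site of the 5-methylcytosine that Tet2 oxidises, occurred 18 times before Id2, 18 times before Id3, 35 times before Id4 and 7 times before Myog, against a median of 6 over all windows. Within 10 bases of an E box lay 1 CpG before Id2 and 0 before Myog. The share of all windows with such a CpG was not counted, so these numbers have no background beside them. These counts are matches of letters in a window and say nothing of binding or methylation in the cells. The CpG that the paper reports near putative MyoD sites of Myog lie in an enhancer far upstream, outside this window.

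**Figure D3:**
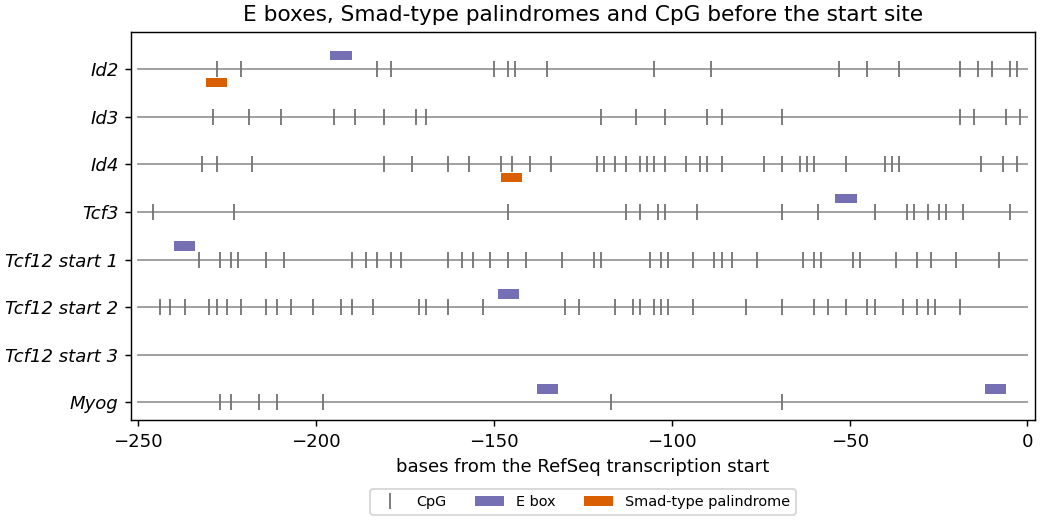
Positions of E boxes (purple), the Smad-type palindrome (orange) and CpG (grey ticks) in the 250 bases before RefSeq transcription starts of Id2, Id3, Id4, Tcf3, Tcf12 (3 annotated starts) and Myog, with the distance to the start in bases on the horizontal axis. Id4 carries 35 CpG and Myog 7, and Myog has an E box close to its start.

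The E proteins, the partners, were less abundant than the 3 main Id genes. Tcf12, which encodes HEB, was the highest, with 70.8 FPKM in Tet2 KO against 76.3 FPKM in WT and a difference of -0.11. Tcf3, which encodes the E12 and E47 proteins as splice forms, had 43.7 FPKM in Tet2 KO against 41.2 FPKM in WT, a difference of 0.08. Tcf4, which encodes E2-2, had 20.4 and 20.8 FPKM, and its difference of -0.03 was the smallest of the 7 members. Its locus in mm9 runs from 69504146 to 69847621 of chromosome 18 (plus strand), with 15 transcripts in GENCODE vM1. Of the 11692 genes, 85.3% differed by at least as much as Tcf4, 55.9% by at least as much as Tcf3 and 47.6% by at least as much as Tcf12. Summed, the E proteins had 135 FPKM in Tet2 KO against 138 FPKM in WT. Tcf12 made up 52.5% of this sum in Tet2 KO and 55.2% in WT, Tcf3 32.4% and 29.8%, and Tcf4 15.1% and 15.0%. The make-up of the E protein pool thus moved by less than 3 percentage points for each gene.

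All 3 E protein genes are long and have several annotated transcripts, which a gene-level value does not separate. In mm9, Tcf3 spans 79871910 to 79896398 of chromosome 10 (minus strand) and has 14 transcripts in GENCODE vM1, and Tcf12 spans 71692059 to 71959626 of chromosome 9 (minus strand) and has 4. A change in the ratio of E12 to E47, or of the long to the short forms of Tcf4 and Tcf12, would not be visible in these values.

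The promoters of Tcf3 and Tcf12 were searched in the same way. Tcf3 had 1 E box, CACTTG, at 54 bases before its start, and 18 CpG, of which 2 lay within 10 bases of the E box. Of the 3 RefSeq starts of Tcf12, the second had 1 E box, CAAGTG, at 149 bases. Its window held 39 CpG, of which 1 lay within 10 bases of the E box. The third start, which lies far downstream, had neither an E box nor a CpG. Before the first start of Tcf12 an E box of the same word as in Id2, CAGCTG, stood 240 bases upstream, with 38 CpG in the window, of which 3 lay within 10 bases of it. That window, at chr9:72111820-72112069 on the minus strand of GRCm38.p6, is shown for comparison with the Id promoters, again with the E box in capitals.
Tcf12: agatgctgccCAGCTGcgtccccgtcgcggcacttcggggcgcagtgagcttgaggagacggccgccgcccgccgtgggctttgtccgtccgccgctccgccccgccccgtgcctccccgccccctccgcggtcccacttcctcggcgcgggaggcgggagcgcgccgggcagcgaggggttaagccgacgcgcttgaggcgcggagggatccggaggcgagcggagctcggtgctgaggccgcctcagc

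The balance of inhibitors and partners was taken as the summed Id level over the summed E protein level. The 4 Id genes summed to 1188 FPKM in Tet2 KO against 1159 FPKM in WT. Their ratio to the E proteins was 8.80 in Tet2 KO and 8.38 in WT, a change of 0.07 on the log2 scale without a pseudocount. Id3 supplied 44.2% of the Id sum in Tet2 KO and 48.7% in WT, Id1 39.1% and 36.3%, and Id2 16.6% and 14.9%. The level of Id3 was 1.13 times that of Id1 in Tet2 KO and 1.34 times in WT. These ratios are of RNA, and neither protein levels nor their pairing was measured. Leaving out Tcf12 turned the direction of the balance, to 18.5 in Tet2 KO against 18.7 in WT.

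Against the myogenic factors, the ratios that contained Myog differed most between the groups. Myod1, which the myoblasts expressed at 313 FPKM in Tet2 KO against 336 FPKM in WT, had a difference of -0.10, and Myf5, at 57.4 and 61.8 FPKM, also had -0.10. Myf6 was low, with 1.33 and 1.67 FPKM. Myog was past 2-fold lower, so that the Id sum was 4.43 times the Myog level in Tet2 KO and 2.09 times in WT. The Id sum was 3.79 times the Myod1 level in Tet2 KO and 3.45 times in WT. The level of Myog was 1.99 times the E protein sum in Tet2 KO and 4.0 times in WT. The summed myogenic factors were 4.74 times the E protein sum in Tet2 KO and 6.89 times in WT, with Myog as the 1 member of the 4 past 2-fold.

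The members were then placed among the other bHLH genes. Of 104 listed bHLH genes, members included, 53 had a mean of at least 1 FPKM, with a median difference of 0.03. Id3 and Id1 had the highest means of all 53, ahead of Myog and Myod1, and Id2 came sixth after Hes6. Past 2-fold were Myog, lower, and Tfec, a relative of Mitf found in macrophages, higher with 5.23 FPKM in Tet2 KO against 1.07 FPKM in WT. Hes6, which counters Hes1 and is itself a target of myogenic factors, had 154 and 237 FPKM, a difference of -0.62. It belongs to the Hes and Hey repressors, of which 5 of 12 had a mean of at least 1 FPKM, with none past 2-fold and a median of -0.03, which was 0.0055 when all 12 were taken without a filter on low values. Of the other genes whose products pair with E proteins, 5 of 40 had a mean of at least 1 FPKM, none of them past 2-fold, and 10 were listed at 0 in at least 1 group. The median of those 5 was 0.58, but it turned to -0.0123 without the filter on low values, and the summed level of all 40 was 93.2 FPKM in Tet2 KO against 102.8 FPKM in WT. Scx, a tendon factor, was the highest of this list, with 50.6 FPKM in Tet2 KO against 59.7 FPKM in WT. Twist1 and Twist2, inhibitors of Myod1, had differences of 0.58 and 0.64 at low levels, with Twist1 at 2.60 and 1.41 FPKM and Twist2 at 3.08 and 1.62 FPKM. Hif1a, the hypoxia factor, had the highest mean of the leucine zipper and PAS bHLH genes, 32 of 41 of which had a mean of at least 1 FPKM with a median of 0.03, at 99.8 and 98.6 FPKM.

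The bHLH genes whose difference lay closest to that of each member were found, over 2 pooled values, so that likeness here is a near ratio and nothing more. They were Arnt and Arnt2 for Id1, with 0.13 and 0.16, and Mycn and Mlxip for Id2, both with 0.18. For Id3 they were Myf5 and Tcf12, with -0.10 and -0.11, and for Tcf12 they were Id3 and Myf5. Hes1 and Arntl2 were closest to Id4, both with 0.05. Arntl and Mlx, with 0.09 and 0.07, were closest to Tcf3, and Bhlhe41 and Mxd3, with -0.03 and -0.05, to Tcf4.

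Genes of the BMP pathway, which acts upstream of the Id genes, were compared next. All 7 ligands examined were below 1 FPKM, the highest value being 0.502 FPKM for Bmp2 in Tet2 KO. Of the 12 receptors and Smads, 11 had a mean of at least 1 FPKM and none was past 2-fold, with a median difference of -0.02. Smad4, the shared partner of the receptor-activated Smads, had 40.2 FPKM in Tet2 KO against 41.5 FPKM in WT. The other BMP-induced genes had a median difference of 0.0027 over the 5 of 8 members with a mean of at least 1 FPKM, with none past 2-fold. Among them Smad6, a feedback inhibitor, had 7.65 and 7.63 FPKM, and Runx2, a bone factor, had 11.5 and 11.7 FPKM. Of the 8 antagonists, all with a mean of at least 1 FPKM, 6 had more RNA in Tet2 KO and the median was 0.16. Grem1, a secreted antagonist of BMP ligands, was the 1 antagonist past 2-fold, with 8.01 FPKM in Tet2 KO against 3.35 FPKM in WT. Fstl1 was the most abundant, with 56.2 and 51.2 FPKM.

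The zinc-finger repressors that compete for E boxes had a median difference of 0.05 over the 4 of 5 genes with a mean of at least 1 FPKM, none past 2-fold, and Zeb2 was the highest with 33.5 and 32.1 FPKM. Of 14 genes for E protein cofactors and Id protein stability, 12 had a mean of at least 1 FPKM, with a median of 0.05 and 1 past 2-fold. That gene was Lmo2, which bridges E protein pairs in blood cells, with 5.80 FPKM in Tet2 KO against 2.34 FPKM in WT. Usp1, which removes ubiquitin from Id proteins, had 42.6 and 37.5 FPKM, a difference of 0.18, and was chosen for its role after its value was seen. Cops5 had the highest mean of this list, with 54.0 and 52.7 FPKM.

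A list of 24 genes of muscle differentiation, assembled as genes driven through E boxes, was set beside the members. Control of each gene through an E box was not checked here. The list includes Myog and Hes6, given above, and shares genes such as Des with the myoblast markers. It was drawn up with earlier results of these data known, and so gives no independent evidence of its direction. All 24 were lower in Tet2 KO, 12 of them past 2-fold against the 1.21% of all genes, and the median difference was -0.98. Acta1, the skeletal actin, had 207 FPKM in Tet2 KO against 629 FPKM in WT, and Myh3, the embryonic myosin heavy chain, had 105 and 313 FPKM. The myosin light chains Myl4 and Mylpf had 274 and 681 FPKM and 321 and 790 FPKM. The Id and E protein lists had medians of 0.10 and -0.03 in the same libraries, with 0 of 7 genes past 2-fold. With 2.08% of all genes past 2-fold higher and 1.21% lower, a count of 0 of 7 is near the background.

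**Figure D4:**
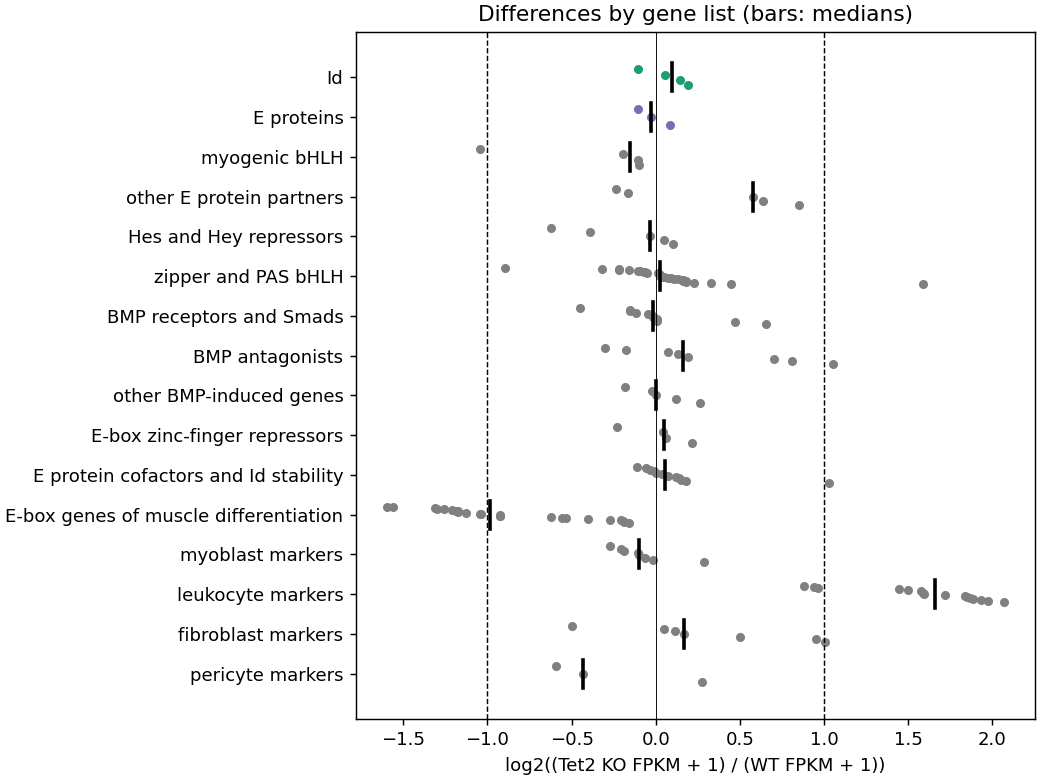
Differences, log2((Tet2 KO FPKM + 1) / (WT FPKM + 1)), of genes with a mean of at least 1 FPKM in each list that had at least 2 such genes. Each point is a gene, black bars are list medians and dashed lines mark 2-fold. The Id and E protein genes lie within 0.2 of 0, the muscle differentiation genes reach -1.60 and the leukocyte markers 2.07.

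Markers of other cells were given beside these values because Id and E protein genes are expressed in many cell types. All 16 leukocyte markers were higher in Tet2 KO, 13 of them past 2-fold against 2.08% of all genes, with none at 0. S100a8 had 941 and 285 FPKM, Lyz2 253 and 59.5 FPKM, Ctss 73.2 and 18.4 FPKM, Cd52 29.6 and 7.28 FPKM and Coro1a 27.0 and 6.12 FPKM. The marker sum was 3.56 times as high in Tet2 KO, while the Id sum was 1.03 times and the E protein sum 0.976 times as high. Most of the marker sum in both groups came from S100a8 and S100a9, the latter with 781 and 213 FPKM. The part of leukocyte RNA in the values of Id2, Lmo2 and Tfec was not tested. The 10 lymphocyte markers summed to 1.503 and 1.261 FPKM, with Cd3e, Cd3g and Ms4a1 listed at 0 in at least 1 group, and the 8 endothelial markers, led by Pecam1 with 1.48 and 1.63 FPKM, to 4.53 and 5.76 FPKM. The 9 fibroblast markers summed to 480 and 446 FPKM, mostly from Ly6a with 288 and 278 FPKM. Ly6a encodes Sca1, which the cells had been sorted to lack before culture. Mfap5 was the 1 fibroblast marker past 2-fold, with 3.27 and 1.13 FPKM. The 5 pericyte markers, led by Pdgfrb with 2.48 and 1.87 FPKM, summed to 4.88 and 6.07 FPKM. The 5 adipocyte markers, led by Fabp4 with 2.59 and 3.19 FPKM, summed to 3.44 and 4.04 FPKM, with Adipoq and Cidec listed at 0 in at least 1 group.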

How the data were processed

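RNA of WT and Tet2 KO primary myoblasts was sequenced from TruSeq libraries, 2 per group. Per the study's methods and the submitters' processing notes, the authors trimmed reads, aligned them to mm9 with TopHat2 2.0.13 and computed FPKM with Cuffdiff 2.2.1; the gene annotation is not given in the sources used here. The FPKM values deposited by the authors were used as 1 pooled value per group; how libraries were combined was not stated. The same file holds the authors' own fold changes, test statistics, p-values and q-values, which were not used, so no test was run.

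Differences were log2((Tet2 KO FPKM + 1) / (WT FPKM + 1)), counted past 2-fold among genes with a mean of at least 1 FPKM, with Python 3.11.15, numpy 2.4.6, pandas 2.3.3 and matplotlib 3.10.9, and the computation was tested on simulated data. Table starts count from 0, so 1 was added. Of the list symbols 2 were matched through RefSeq synonyms. Promoter sequences came from RefSeq (GRCm38.p6), where 5 of the 7 members matched. Windows on chromosome 18, where Tcf4 lies, were left out before matching, so Tcf4 could not match. Id1 had no matching window.

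Members and gene lists were chosen with earlier results of these data known. The genes named were the members, Tet2, the 4 myogenic bHLH genes, up to 4 genes past 2-fold and the highest gene of every other list, and the 2 bHLH genes closest in difference to each member. Exceptions are marked as chosen after their values were seen. Twist1, Twist2, Smad6, Bmp2, S100a9, Ptprc and Itgam are further ones. Cd3e, Cd3g, Ms4a1, Adipoq and Cidec were named because they were listed at 0, and A330033J07Rik because it overlaps Id4. Alternatives covered the pseudocount, the filter, the scale, the fold and the members summed.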

Additional observations from a re-analysis of the deposited data

How the results depend on the processing

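No paired analysis was possible because each group entered as a single pooled column, and for the same reason no library could be left out. The 28 recomputed differences of the members (pseudocounts of 0.1 and none, TPM and median centring) kept their sign and stayed under 2-fold; a pseudocount cannot turn a sign. The median of all genes moved by 0.0031 under TPM and by 0.0044 under centring, and Id4 went from 0.0529 to 0.0694 under TPM. The 243 genes past 2-fold higher became 109 at a mean FPKM of at least 5 and 435 at 1.5-fold. The 142 genes lower became 215 with a pseudocount of 0.1, 224 with none and 338 at 1.5-fold. The Id to E protein ratio was 8.80 in Tet2 KO and 8.38 in WT. It became 5.36 and 5.33 without Id1, 4.91 and 4.30 without Id3, and 18.5 and 18.7 without Tcf12. The ratio was higher in Tet2 KO in 7 of 8 sums. These sums share most of their genes and the same pooled columns, so the tally is not separate support. With no filter on low values, the median of the other E protein partners turned from 0.58 to -0.0123 and that of the Hes and Hey genes from -0.03 to 0.0055, as genes near 0 entered. The muscle differentiation median moved past 2-fold, to -1.04, with a pseudocount of 0.1. The other 51 of 54 recomputed list medians kept sign and side. Depth is unknown, so the precision of low values such as that of Id4 cannot be given.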

Other observations

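Some genes outside the naming rule were picked after their values were seen. Mycl, a Myc family gene, had 6.89 FPKM in Tet2 KO against 13.7 FPKM in WT, a difference of -0.89, the lowest of the bHLH genes after Myog. Lyl1, a blood-cell partner of E proteins, had 1.68 and 0.489 FPKM, while its relative Tal1 had 0.173 and 0.0563 FPKM. Fst, which encodes the secreted antagonist follistatin, had 48.0 and 27.0 FPKM, a difference of 0.81. Bmpr1b, a type I BMP receptor, had 2.56 and 1.26 FPKM, whereas Bmpr1a had 35.4 and 39.5 FPKM. None of these was past 2-fold on the log2(FPKM + 1) scale, and no replicate error stands behind them. Without the added 1, the low values of Lyl1, Tal1 and Bmpr1b would each be past 2-fold. Tal1 had a mean below 1 FPKM.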
